A study of Homo sapiens with 2 samples.

Results

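The circRNAs described here came from host genes that gave more than 1 circle in SW620 cells, a human colorectal cancer line. A host gene was counted when its whole entry in the host column stood on at least 2 circRNAs of the table, and every circRNA of such a host was a member. The rule used host names only, and no level. It gave 213 of 1168 host entries (18.2%) and 525 of 1485 circRNAs (35.4%), while 955 circRNAs were the only circle of their host. Of the 213 hosts, 154 had 2 circRNAs, 36 had 3, 12 had 4, 6 had 5, 4 had 6, and MAD1L1 had 7.

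The study sequenced 2 libraries of rRNA-depleted, RNase R-digested total RNA, of which 1 is labelled Control. The cells of the other library received Hedyotis diffusa-Sculellaria barbata (HD-SB), a herb pair, and were collected 24 h later. Its concentration was 1 mg/mL. RNase R is an exonuclease that degrades linear RNA and spares circles. With 1 library per group there was no replicate check, and every interval below is an exact Clopper-Pearson 95% interval that covers counting error only. The libraries differed greatly in depth, with 11570 back-splice reads on 1475 circRNAs in HD-SB and 91 reads on 32 circRNAs in Control, both recovered as whole reads from the deposited values. In HD-SB, 4732 reads lay on members, a share of 40.9% (40.0 to 41.8%). In Control the number was 44, a share of 48.4% (37.7 to 59.1%). The structure of the circles below is described over the whole table, which includes 6 members listed in Control only. HD-SB alone would give 209 hosts and 515 circRNAs, since the host entries CTBP2, DYRK1A, MPP6 and RNF13 had a second circle only in Control. Read counts are those of HD-SB unless Control is named. Of 12 intestinal epithelial marker genes, 4 hosted a circRNA. Among these only EPCAM hosted more than 1, with 9, 8 and 3 reads, while EPHB2, FUT8 and VIL1 hosted 1 each. Of 5 leukocyte markers, PTPN22 hosted 1 circRNA with 4 reads, and of 4 endothelial and neuronal markers, GRIN2B hosted 1 with 4. None of 5 fibroblast and smooth muscle markers hosted any. No cell type was assigned from these genes.

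A circRNA forms when a splice donor at the end of an exon joins an acceptor at the start of the same or an upstream exon, in place of a downstream one. The joined ends leave a back-splice junction that no linear transcript holds. A gene can make different circles by pairing 1 acceptor with several donors, by pairing 1 donor with several acceptors, or by closing separate groups of exons. The table gives each circle by its outermost positions, so 2 circles with the same start or the same end used the same splice site on that side.

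Most positions in the table did not sit on the GRCh38 exons of their hosts, although GRCh38 is the build in the submitters' processing notes. Only 6 uniquely matched members, those of PHRF1 among them, stood at their GRCh38 positions. Only 112 of the 514 members with a host in GENCODE 29 lay inside that gene at the deposited position. Exons were therefore assigned by length: a circle was matched where its span equalled the distance from an exon start to an exon end in a transcript of its host. This gave 462 unique matches among 525 members (88.0%), and 3 more members had several matches. Of the members with a host in GENCODE, 90.5% matched at their exact span, against 1.40% of the spans made 1 to 10 bases too long. In 178 of 184 hosts with at least 2 unique matches, deposited and GENCODE positions differed by 1 constant shift, and in 5 others the shifts differed by 1 base. Exon numbers below come from this match, count from the 5′ end of the matched transcript, and are an inference from length. Positions of circles are given as deposited, and positions of exons in GRCh38.

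The junction sequences of 3 hosts show how circles of 1 gene are put together. Each line runs 5′ to 3′ across the back-splice, with the end of the donor exon in lower case and the start of the acceptor exon in capitals, as read from the GENCODE 29 transcripts of GRCh38. The junctions were put together from the matched exons and not read from sequencing reads. In RBM33, which encodes an RNA-binding protein, 3 circles on the plus strand closed from the same donor, the end of exon 5 (chr7:155680590-155680908), to 3 different acceptors.
RBM33 hsa_circ_0001771, exons 2 to 5: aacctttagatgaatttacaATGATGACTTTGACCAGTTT
RBM33 hsa_circ_0001772, exons 3 to 5: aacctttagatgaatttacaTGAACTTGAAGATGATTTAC
RBM33 hsa_circ_0083092, exons 4 to 5: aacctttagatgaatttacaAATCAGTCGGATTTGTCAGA
The lower-case part is the same in the 3 RBM33 lines and the capitals differ. The acceptor exons were exon 2 (chr7:155665175-155665253), exon 3 (chr7:155672867-155672915) and exon 4 (chr7:155678608-155678684). The middle acceptor had 136 HD-SB reads, and the acceptors before and after it had 8 and 6.

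PHRF1, a PHD and RING finger protein gene, showed the mirror image, with 1 acceptor at exon 2 (chr11:581492-581606, plus strand) and 3 donors.
PHRF1 without circBase identifier, exons 2 to 3: tggaagacagatctgAGCTGAGCTCAATGT
PHRF1 hsa_circ_0020670, exons 2 to 4: gtcgaatggtccaagAGCTGAGCTCAATGT
PHRF1 without circBase identifier, exons 2 to 6: cggctgcgatgcgggAGCTGAGCTCAATGT
The capitals are the same in the 3 PHRF1 lines. The circles that ended at exons 3, 4 and 6 had 4, 3 and 5 reads, so none of these 3 led. Another PHRF1 circle, of exons 7 to 9 and disjoint from them, had 9 reads, the most of the host.

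ATXN7, which encodes a subunit of the SAGA chromatin complex and is known for a repeat expansion in spinocerebellar ataxia, used both. Its 4 circles were all the combinations of 2 acceptors, exon 2 (chr3:63898399-63898497) and exon 3 (chr3:63912588-63912923), with 2 donors, exon 4 (chr3:63913157-63913225) and exon 5 (chr3:63952379-63952483), on the plus strand.
ATXN7 hsa_circ_0007761, exons 3 to 4: ggctctgtcgggaagGAGCGGAAAGAATGT
ATXN7 hsa_circ_0002634, exons 2 to 5: ttcaatcacattatgATCTGAACAGAATTA
ATXN7 hsa_circ_0001988, exons 2 to 4: ggctctgtcgggaagATCTGAACAGAATTA
ATXN7 hsa_circ_0066434, exons 3 to 5: ttcaatcacattatgGAGCGGAAAGAATGT
The circle of exons 3 to 4, hsa_circ_0007761, had 211 HD-SB reads, the most of any member. The circle of exons 2 to 5 had 9 reads, that of exons 2 to 4 had 5, and that of exons 3 to 5 had 2. The same 2 splice sites that made up nearly all ATXN7 reads when joined to each other were thus seldom read when joined to another partner. Only 1 other host, RPH3AL, which encodes a Rab effector of secretion, held all 4 circles of 2 starts and 2 ends. There the 4 were close, with 17 reads for exons 3 to 5, 11 for exons 4 to 6, 8 for exons 3 to 6 and 7 for exons 4 to 5.

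**Figure D1:**
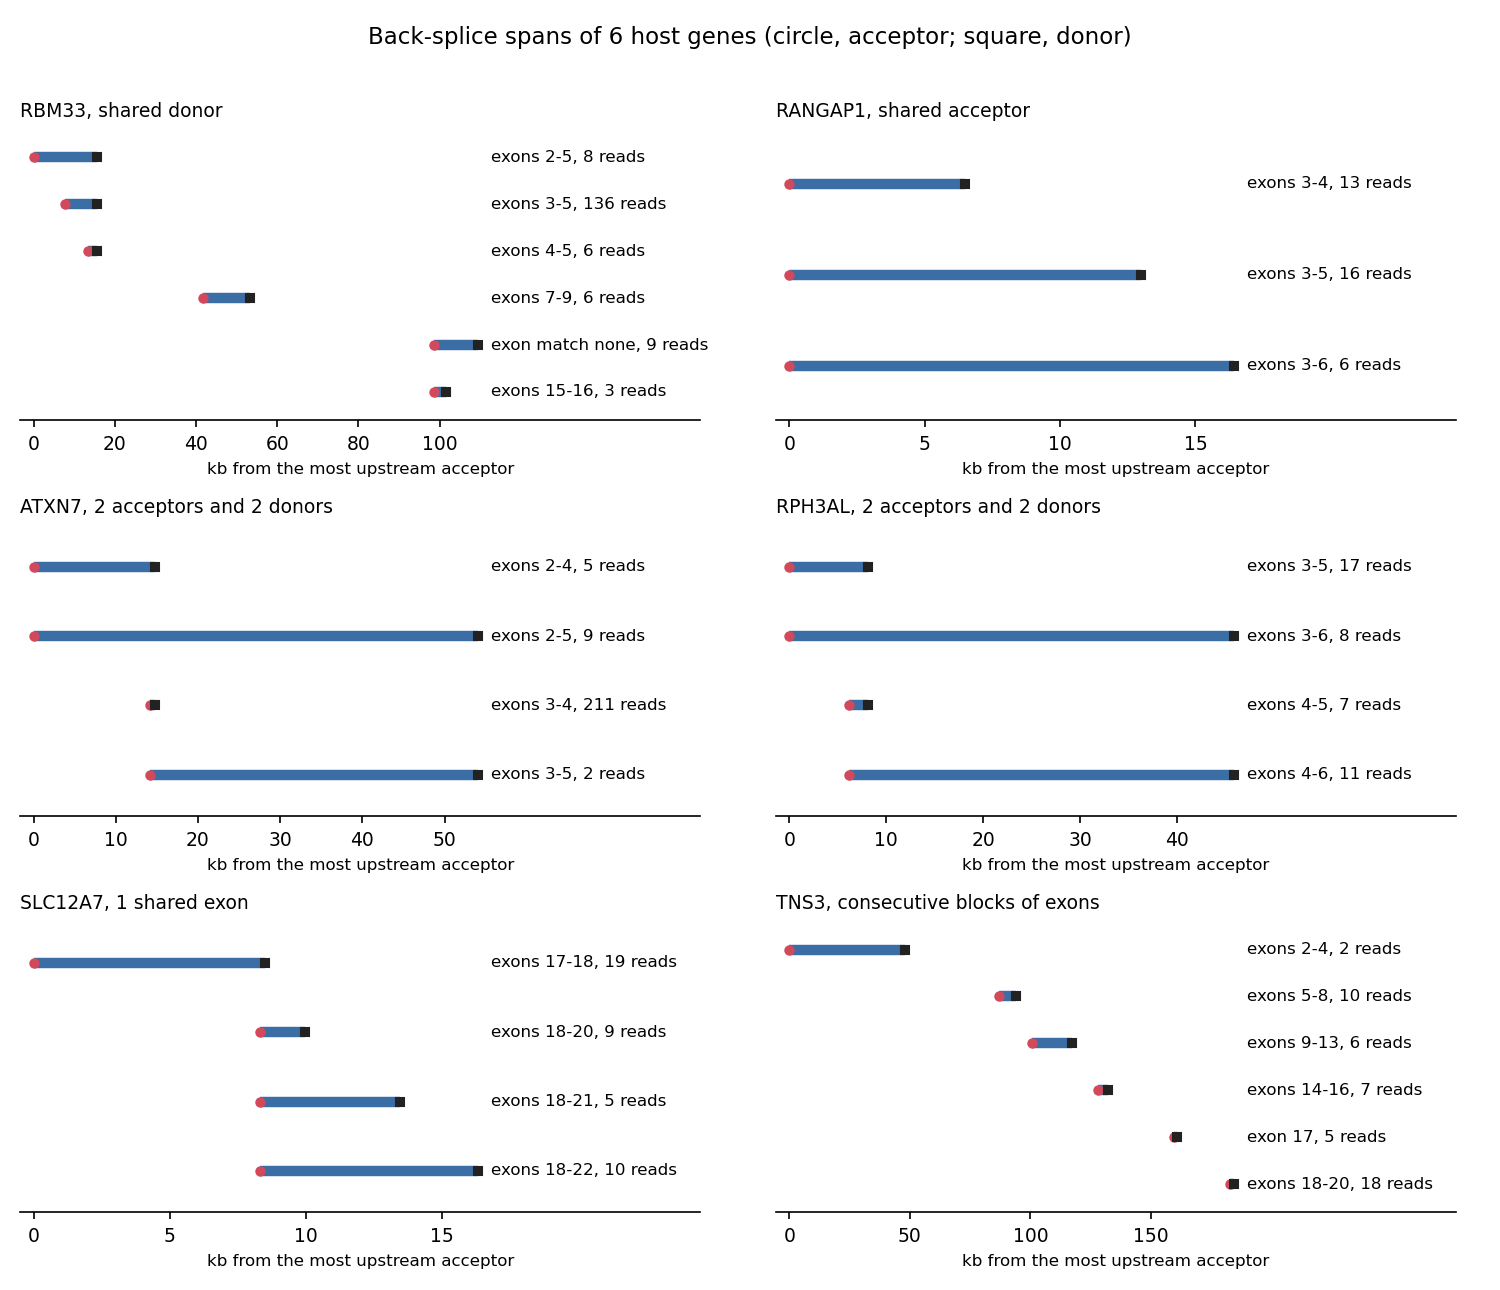
Back-splice spans of 6 host genes, each line 1 circRNA, drawn in kb from the most upstream acceptor of the host in the direction of transcription, with the matched exons and HD-SB reads beside it. Among 6 RBM33 circles 3 line up at a shared donor, the 3 RANGAP1 circles share an acceptor, ATXN7 and RPH3AL fill all combinations of 2 acceptors and 2 donors, SLC12A7 circles meet in exon 18, and TNS3 circles follow each other without overlap.

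Over all hosts, pairs of circles from 1 gene fell into 3 arrangements. The 213 hosts gave 475 pairs, 470 of them on 1 chromosome, and a host with more circRNAs gave more pairs. Of the 470, 191 (40.6%) were nested, 54 (11.5%) overlapped in part, and 225 (47.9%) were disjoint. A boundary was shared by 175 pairs (37.2%), 87 at the left and 88 at the right end, and all of these were nested by construction. A further 16 nested pairs shared neither end. In 117 of the 213 hosts (54.9%) at least 1 pair shared a boundary. In 77 hosts all pairs were disjoint, and in 78 all were nested. With 1 vote per host, the shared-boundary share was 43.3%.

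**Figure D2:**
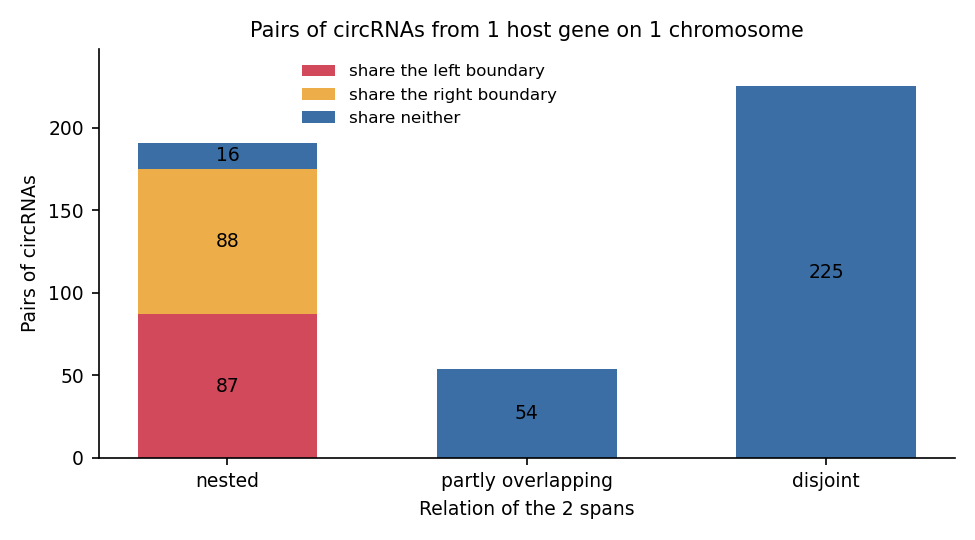
Number of pairs of circRNAs from 1 host gene on 1 chromosome (vertical axis), by the relation of their spans and by the boundary they share (colour). The 225 disjoint pairs outnumber the 191 nested ones, and 175 of the nested pairs share 1 end.

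By strand, 90 of 164 boundary-sharing pairs with an assigned strand shared the acceptor (54.9%) and 74 shared the donor. Over all 175 boundary-sharing pairs, the median span was 4439 bases for the shorter and 16419 for the longer circle. Of 145 pairs with exons assigned to both circles, 80 (55.2%) differed by 1 exon and 55 by more, up to 21 in DOCK1. That gene, a guanine nucleotide exchange factor for Rac, gave circles of exons 2 to 6 (hsa_circ_0007142, 4 reads) and of exons 2 to 27 (hsa_circ_0020397, 6 reads) from the same acceptor. The latter, with 26 exons, was the largest member in exon number, against a maximum of 12 among circles of single-circRNA hosts.

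Counted within each host entry, the members had 892 distinct boundaries. Of these, 751 were used by 1 circRNA, 124 by 2 and 17 by 3, and none by more within an entry. A site under several entries was counted for each. The chromosome 21 start at 38792601, for example, served 2 circRNAs under DYRK1A. It served 2 others under an entry that joins DYRK1A to small-RNA names. RANGAP1, the GTPase-activating protein of Ran, joined the acceptor of exon 3 to the donors of exons 4, 5 and 6 with 13, 16 and 6 reads. LRP5, a Wnt co-receptor, started 3 circles at one acceptor, with 84, 2 and 2 reads. PRKAR1B, a regulatory subunit of protein kinase A, likewise had 98, 6 and 6 reads on 3 circles with 1 shared acceptor. Shared sites thus came with an even split in some hosts and with 1 leading circle in others. RANGAP1, PHRF1, SLC12A7, WDR37, TCFL5 and AXIN1 were chosen as examples after their values were seen.

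Where 2 circles shared a boundary, the shorter had more HD-SB reads in 91 of 175 pairs, the longer in 66, and 18 were equal. Taking the pair with the most reads in each host, the counts were 70, 39 and 8 of 117. Among pairs that shared the acceptor, the shorter circle led in 54 of 90 and the longer in 26. Among pairs that shared the donor the counts were 33 and 34 of 74. Whether the split differs between acceptor and donor was not tested, since pairs of a host share their reads and there was 1 library.

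**Figure D3:**
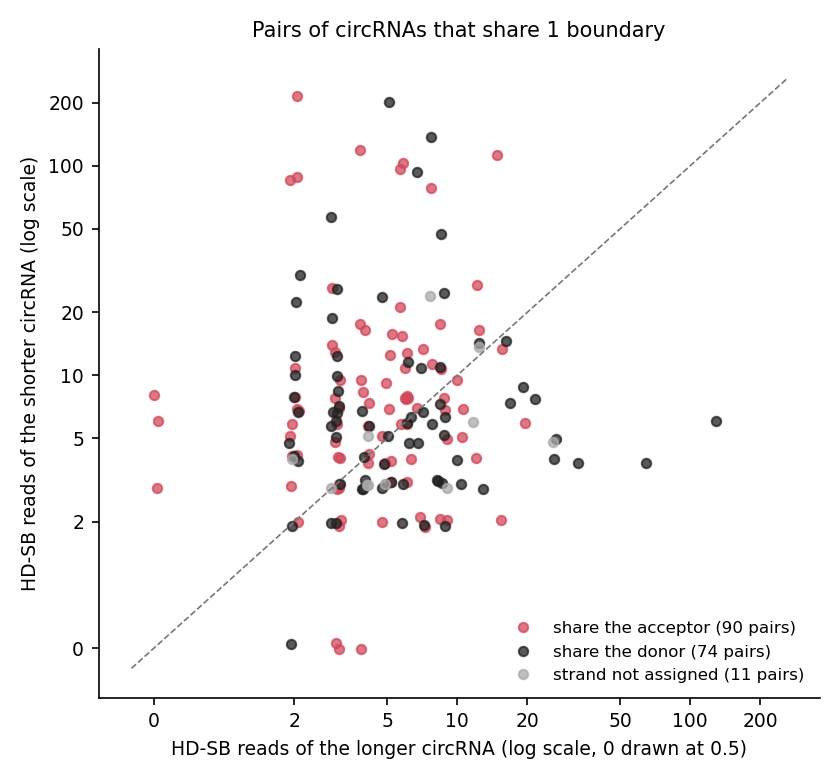
HD-SB reads of the shorter circRNA against those of the longer in the 175 pairs that share a boundary, on log axes with 0 drawn at 0.5 and points moved slightly apart, coloured by the shared splice site. Above the dashed line of equality lie 91 pairs, in which the shorter circle has more reads, and the highest points are ATXN7 pairs with 211 reads.

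Among the disjoint pairs, many circles stood back to back. Both circles had exons assigned on 1 transcript in 184 disjoint pairs. In 60 of these (32.6%), from 46 hosts, the acceptor exon of one circle came directly after the donor exon of the other in at least 1 transcript that holds both, so that in it 1 intron flanked both circles. In 53 of the 60, from 42 hosts, this held in every such transcript. In 25 more pairs 1 exon lay between, the median was 2 exons between, and the most was 36, in ATM. TNS3, which encodes the focal adhesion protein tensin 3, had the most such neighbours. Its 6 circles held exons 2 to 4, 5 to 8, 9 to 13, 14 to 16, 17 alone, and 18 to 20, and in the matched transcript ran through exons 2 to 20 without a gap or an overlap. In 1 other transcript an exon lay between the circles that end at exon 13 and begin at exon 14. Their HD-SB reads were 2, 10, 6, 7, 5 and 18 in that order. EHMT1, a histone H3 lysine methyltransferase gene, gave 3 consecutive circles from exon 3 alone, exons 4 to 6 and exons 7 to 9, with 5, 5 and 7 reads. Its other circles lay further downstream, at exons 11 to 15, at exons 19 to 25, and at a span with no exon match, with 2, 6 and 2 reads. AXIN1, a scaffold of the beta-catenin destruction complex, had neighbours at exons 3 to 5 (18 reads) and 6 to 7 (8 reads). NUDC, a dynein-associated factor, had neighbours at exons 3 to 4 (3 reads) and 5 to 6 (31 reads).

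Partly overlapping pairs often met in a single exon. In 20 of 47 such pairs with exons assigned (42.6%), from 17 hosts, the overlap was exactly 1 exon, which closed one circle with its donor and the other with its acceptor. In SLC12A7, a potassium-chloride cotransporter gene, exon 18 ended a circle of exons 17 to 18 with 19 reads. The same exon began circles that reached exons 20, 21 and 22, with 9, 5 and 10 reads. In HDAC4, a class IIa histone deacetylase, exon 5 ended a circle of exons 3 to 5 (8 reads) and began one of exons 5 to 7 (7 reads). In TBCD, a tubulin folding cofactor, exon 19 ended a circle of exons 15 to 19 (14 reads) and began one of exons 19 to 23 (15 reads).

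In 10 pairs from 9 host entries a boundary differed by 1 to 10 bases. The difference was exactly 3 bases in 8 of them and 5 bases in both pairs of C7orf50, at the same site. The pairs of GS1-124K5.12 and of a joined small-RNA entry also had the same site, with ends at 66041916 and 66041919 of chromosome 7. In all 8 near pairs with a strand, the moved boundary was the acceptor, and in none the donor. For 4 hosts both circles had a unique exon match, and the junctions are shown because they display the 3 bases that tell the circles apart. Exon numbers are those of the transcript each circle matched.
POLD1 hsa_circ_0052011, exons 2 to 3: ttgaccattatgtggCAGGATGGATGGCAA
POLD1 hsa_circ_0052012, exons 2 to 3: ttgaccattatgtggGATGGATGGCAAGCG
FKBP8 hsa_circ_0050119, exons 5 to 6: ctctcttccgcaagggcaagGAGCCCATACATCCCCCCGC
FKBP8 hsa_circ_0000914, exons 5 to 6: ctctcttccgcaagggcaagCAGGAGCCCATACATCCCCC
ANKRD11 hsa_circ_0003846, exons 3 to 4: aggactcggacacagACGGTTGATGATGAA
ANKRD11 hsa_circ_0040929, exons 3 to 4: aggactcggacacagCAGACGGTTGATGAT
WDR37 hsa_circ_0005792, exons 12 to 13: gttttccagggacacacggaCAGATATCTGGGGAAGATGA
WDR37 hsa_circ_0017465, exons 10 to 11: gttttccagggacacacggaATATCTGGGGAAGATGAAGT
In each pair the longer circle opens its acceptor exon with the letters CAG and the shorter begins 3 bases later. Acceptor sites end in AG, and neighbouring sites 3 bases apart are known as tandem acceptors. The intron before these exons was not read here. In TCFL5, the fifth host in which the longer circle was matched, the acceptor exon opened with AAG. Acceptor exons of the longer and shorter circle were chr19:50398848-50399053 and chr19:50398851-50399053 in POLD1 on the plus strand, and chr19:18538216-18538436 and chr19:18538216-18538433 in FKBP8 on the minus strand. They were chr16:89316933-89317078 and chr16:89316933-89317075 in ANKRD11 on the minus strand, and chr10:1103599-1103836 and chr10:1103602-1103836 in WDR37 on the plus strand.

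Neither acceptor of these pairs led throughout. In POLD1, the catalytic subunit of DNA polymerase delta, the circle without CAG had 92 reads and the one with it 7. ANKRD11, an ankyrin repeat protein gene, also had more reads without CAG, 25 against 9. FKBP8, a membrane-bound immunophilin, had more with CAG, 32 against 4, and WDR37, a WD repeat protein gene, had 8 against 3. Over the 8 pairs that differed by 3 bases, the shorter circle had more reads in 4. The RBM33 pair among them, with 3 reads on the shorter circle and 9 on the longer, also differed by 7992 bases at the other end.

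The share of a host's HD-SB reads on its top circRNA was set for the 66 hosts with at least 20 reads. Its median was 66.6%, from 23.5% in MAD1L1 to 97.0% in LRP6. The top circle held at least 50% in 46 hosts and at least 80% in 24, and in 32 the whole interval lay above 50%. A host with 2 circles cannot fall below 50%, one with 3 below 33.3% and one with 4 below 25%. Medians at 2, 3 and 4 circRNAs were 86.4%, 57.1% and 43.8%, over 25, 19 and 12 hosts. Those at 5 and 6 were 42.9% and 52.9%, over only 5 and 4 hosts, so the order did not hold to the end. The limit of 20 reads kept 25 of the 154 hosts with 2 circRNAs, whose median was 11 reads. The 86.4% thus describes the more abundant of them.

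**Figure D4:**
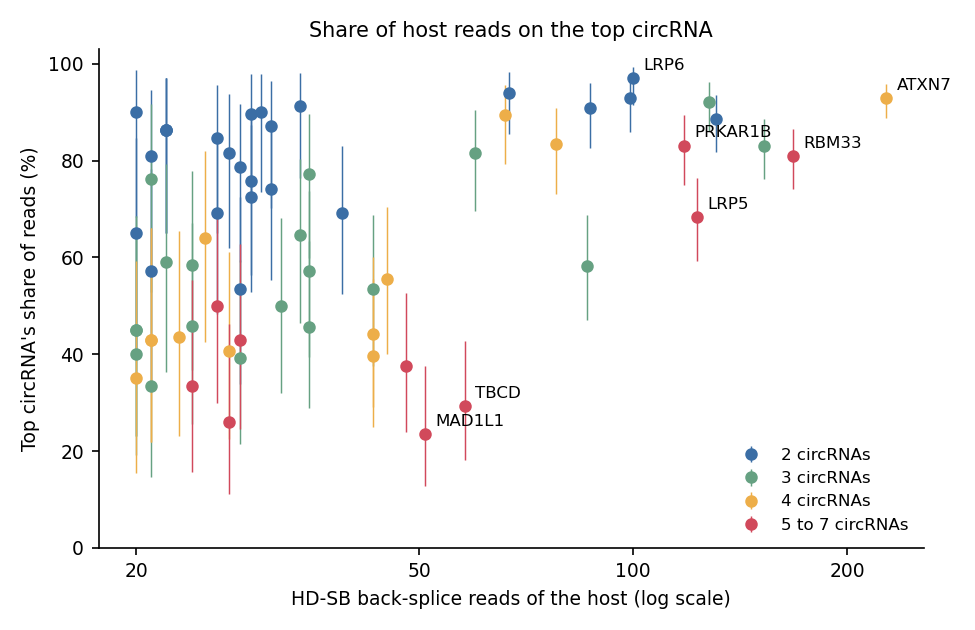
Share of a host's HD-SB reads on its top circRNA, with the exact 95% interval, against the host's HD-SB reads on a log axis, for the 66 hosts with at least 20 reads, coloured by the number of circRNAs. ATXN7, RBM33 and LRP6 sit above 80%, while MAD1L1 and TBCD lie below 30% at 51 and 58 reads.

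Several abundant hosts were close to 1 circle. LRP6, a Wnt co-receptor, had 97 reads on the single-exon circle of exon 2 (hsa_circ_0000378, chr12:12397196-12397589 as deposited) and 3 on a disjoint circle of exons 4 to 7. CAMSAP1, a binder of microtubule minus ends, had 118 reads on exons 2 to 3 (hsa_circ_0001900), 6 on exons 4 to 7 and 4 on exons 2 to 4. CCDC134 had 116 reads on exons 2 to 4 and 15 on exons 2 to 6. ABHD2, a lipid hydrolase, had 79 reads on exons 2 to 3 and 8 on exons 2 to 5. ZNF81, a zinc finger protein gene, went the other way in length, with 63 reads on exons 3 to 5 and 4 on exons 4 to 5.

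Other hosts divided their reads. MAD1L1, a spindle checkpoint protein gene, had 12, 12, 11, 8, 3, 3 and 2 reads on 7 circles, a top share of 23.5% (12.8 to 37.5%). TBCD had 17, 15, 14, 7 and 5 reads, a top share of 29.3% (18.1 to 42.7%). MTHFD1L, a mitochondrial enzyme of folate metabolism, had 7 reads on each of its 3 circles. ATXN7, with 4 circles, stood at 93.0% (88.8 to 95.9%). These hosts were named for their low or high top share.

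The 312 circles that were not the top of their host were mostly few in reads. Their median was 3.5 HD-SB reads, 72 stood at 2 reads, the fewest the table lists, and 19 had at least 10. Top circles had a circBase identifier in 83.6% of hosts and lesser circles in 76.6%. Median spans were 5368 bases for top and 7520 for lesser circles.

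Set beside the 955 circles of single-circRNA hosts, members had the same median HD-SB reads, 5 in both, and longer spans, a median of 6813 against 3231 bases. The median exon number in the circle was 3 in both, and the median spliced length was 390.5 against 358.5 bases. Median flanking introns were 8538 bases upstream and 8913 downstream for members, against 6381 and 5733. The median intron of the matched transcript was also longer for members, with a median of 2783 against 2069.5 bases. Both flanking introns exceeded that transcript median in 68.8% of members and 65.0% of the others. The upstream intron did so in 78.6% and 80.3%, and the downstream intron in 84.5% and 80.4%. Host genes were longer too, with a median of 110741 against 68430 bases and 17 against 15 exons. Single-exon circles made up 3.68% of members and 7.71% of the others, circles of more than 5 exons 7.79% and 4.46%, and circles that began at exon 2 made up 26.4% and 34.9%. In both sets about the same share of circles held the start codon (16.5% and 15.7%) or only coding exons (80.1% and 79.8%). The reads are those of 1 library, while the other medians and shares cover circles of the whole table, and none was tested.

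Lists of host genes by function, and a list of widely studied circRNA hosts, are given by count, beside 18.2% of all hosts with at least 2 circRNAs. The lists were chosen with earlier results of these data known, and no enrichment was tested. Counts include hosts whose second circle was listed only in Control, such as CTBP2. Of 9 Wnt and beta-catenin genes that hosted a circRNA, 5 (55.6%) hosted more than 1: the co-receptors LRP5 and LRP6, the corepressors CTBP1 and CTBP2, and AXIN1. Among chromatin regulators the count was 14 of 36 (38.9%), with ATXN7, EHMT1 and HDAC4 holding the most reads. Among splicing and RNA-binding genes it was 11 of 29 (37.9%), led by RBM33, FTO and HNRNPM. Cell cycle, replication and repair genes gave 10 of 32 (31.2%), ubiquitin enzymes 6 of 23 (26.1%), and cytoskeleton and adhesion genes 6 of 24 (25%). Kinases and phosphatases gave 5 of 22 (22.7%), and membrane and vesicle traffic genes 3 of 19 (15.8%). Of 46 widely studied circRNA hosts in the table, 18 (39.1%) had more than 1 circle.

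A few host entries joined several names or held a small-RNA, clone or date name. In 9 hosts the entry joined several names, in 10 it held only small-RNA, clone or date names, and some entries were in both counts. The circles of 3 such entries lay on more than 1 chromosome. The entry of snoU13 and Y_RNA held 127 reads on a circle of chromosome 15 and 12 and 14 on circles of chromosome 3, so the circle on chromosome 15 shares only a name with the others, which had the same end. DYRK1A, ATXN10 and RP11-453F18__B.1 each stood both alone and in a joined entry, so their circles were divided between entries. RP11-453F18__B.1 had 3 circles with 35 HD-SB reads alone and 5 with 28 in the joined entry, all on chromosome X. Counts above include these entries.

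Between the libraries, 14 members in 12 hosts were listed in Control, 8 of them also in HD-SB. RBM33 hsa_circ_0001772 had 5 Control and 136 HD-SB reads, and no other RBM33 circle was listed in Control. CAMSAP1 hsa_circ_0001900 had 2 and 118. These are the top circles of their hosts in HD-SB. MIB1, a ubiquitin ligase of Notch signalling, had 3 Control and 5 HD-SB reads on hsa_circ_0000835, and ZNF124, a zinc finger protein gene, had 3 and 7 on a circle without a circBase identifier. In UBAP2, a ubiquitin-associated protein gene, the top circle hsa_circ_0001847 had 3 Control and 59 HD-SB reads, while hsa_circ_0001851 had 2 Control reads and was not listed in HD-SB. MAN1A2, a Golgi mannosidase gene, had both of its circles in both libraries. In Control, 5 of its 9 reads fell on hsa_circ_0000118, exons 2 to 5 (55.6%, 21.2 to 86.3%), and 4 on hsa_circ_0000117, exons 2 to 4. In HD-SB these were 3 of 10 (30.0%, 6.67 to 65.2%) and 7, and the intervals overlap.

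In 5 hosts besides UBAP2, the Control circle was one that HD-SB did not list. RNF13, a RING-type ubiquitin ligase gene, showed the most reads of this kind. From the acceptor of exon 3, its circle of exons 3 to 9 (hsa_circ_0001346) had 6 Control and 0 HD-SB reads, and its circle of exons 3 to 5 (hsa_circ_0067716) had 0 and 3. CTBP2 had 3 Control reads on hsa_circ_0005418 and 2 HD-SB reads on hsa_circ_0002545. DYRK1A, a dual-specificity kinase, had 2 Control reads on hsa_circ_0005955 and 8 HD-SB reads on hsa_circ_0006062. A separate entry that joins DYRK1A to small-RNA names held 2 more circles from the same start, with 4 and 2 HD-SB reads. MPP6, a membrane scaffold gene, had 2 on one circle and 4 on the other, and HDAC4 had 2 Control reads on a circle of exons 6 to 9 beside 24 HD-SB reads on its other 4. In SLC38A1, a glutamine transporter gene, Control listed only hsa_circ_0000396 with 2 reads, which in HD-SB had 12 reads beside 27 on hsa_circ_0000398. The share intervals of these Control circles overlapped between the libraries in each host but HDAC4. Its circle of exons 6 to 9 had 2 of 2 Control reads (100%, 15.8 to 100%) and 0 of 24 in HD-SB (0 to 14.2%), where a circle with 1 read would not be listed. With 2 to 6 Control reads in these hosts and 1 library per group, no change of circle was tested.

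On log2(CPM + 172.861), with 172.861 CPM the 5th percentile of listed values, 300 members passed the filter on the mean CPM of at least 216.1. Of these, 286 exceeded Control by 2-fold or more, and 14 fell below it by as much. Among all 797 circRNAs that passed, 96.0% were called higher and 4.02% lower, so the members' shares of 95.3% and 4.67% were near the background. The 286 members called higher were all unlisted in Control. With 0.5 read added in each library in place of the pseudocount, 2 members were called higher and 287 lower, so neither direction is a result about the members.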

How the data were processed

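The deposited table holds 1 value per circRNA and library in CPM, the back-splice reads per 1000000 listed ones (headed TPM by the authors). The submitters' processing notes list FastQC, HISAT2 2.1.0 and GRCh38 with no step attached. Neither the circRNA caller nor its settings are given in the sources used here. The value 0.001 was taken as not listed. Every listed value was a whole multiple, within 0.01 of a step, of 1 read, worth 10989.0 CPM in Control and 86.43 CPM in HD-SB, and at least 2 reads were needed for a listing. Whether reads are independent molecules is not given, and PCR copies would make the intervals too narrow.

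Members, host lists and named hosts were chosen with earlier results of these data known. Pairs within a host were classed by exact start and end. Named hosts were those with the most circRNAs, the most reads, the highest and lowest top shares, a Control listing, or the most boundary-sharing pairs, and the 3 with the most reads in each list. Older symbols were resolved through the RefSeq and GENCODE gene tables. Exons were matched by span to GENCODE 29 transcripts with Python 3.11.15, pandas 2.3.3, numpy 2.4.6 and scipy 1.17.1. Read recovery, pair classes and exon matching were checked on simulated data. Of 500 exon ranges drawn from the hosts' own transcripts, 454 were matched uniquely. Since the same transcripts were searched, a unique match was the drawn range by construction. This does not check the match of circles whose exons are not annotated. No test across circRNAs was run, since each group has 1 library.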

Additional observations from a re-analysis of the deposited data

How the results depend on the processing

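Of 56 alternatives, 42 left a count or a median of reads or spans within 1.5 times, a share within its exact interval, or the median top share within 1 SD over hosts. Splitting host entries at separators raised the members from 525 to 851, as a circle of a compound entry then counted under each of its names. Keeping circRNAs with at least 5 reads left 83 hosts and 199 circRNAs. Keeping those with at least 5 HD-SB reads gave members a median of 8 HD-SB reads, which that limit raises by construction, and changed the circBase share of single-circRNA hosts to 80.8%, from 73.8%. Hosts with exactly 2 circRNAs gave 44.4% of pairs sharing a boundary and 47.1% nested, and 1 vote per host gave 43.3% and 46.0%, against 37.2% and 40.6% over all pairs. A pseudocount 4 times larger called 121 members higher in HD-SB, no filter 511, and 0.5 read in each library 2, while the last called 287 lower against 14. Members were 35.2% of HD-SB circRNAs against 40.9% of its reads. The basic transcript set, an alternative added after seeing the data, matched 454 members against 465. Asking for consecutive exons in every transcript that holds both circles, also added, kept 53 of 60 pairs. No paired analysis was possible because there was 1 library in each group.

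Depth limits the list itself. A second circle below 2 reads leaves its host among those with 1, so the number of hosts with several circles is a lower count at this depth. The 91 Control reads allow no within-host comparison beyond the values given.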
